A study of Mus musculus with 4 samples.

Results

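The genes described here are 38 genes expressed mainly by macrophages, the resident phagocytes of tissue, and in part by other leukocytes. They were chosen by name, with earlier results of these data known. By symbol, 37 of the 38 were found among the 21937 genes of the deposited table. Spi1, the gene of the myeloid transcription factor PU.1, was not found under that symbol. The row headed Sfpi1, an older symbol of Spi1 in RefSeq, was read beside the members and is not counted among them. All 37 genes had a mean value of at least 20 over both sides of the comparison.

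RNA was sequenced from pooled superior cervical and stellate ganglia, sympathetic ganglia at the level of the neck and upper chest, taken from mice at postnatal day 60. All 4 groups carried DbhCreERT2, a Cre recombinase that needs tamoxifen and is expressed from the dopamine beta-hydroxylase promoter, and all received tamoxifen for 10 days, controls included. Dbh is a gene of noradrenergic neurons, so the recombinase is directed at neurons and not at macrophages. The Hand2 mutant was Hand2flox/del::DbhCreERT2 and its control was Hand2flox/+::DbhCreERT2. The Gata3 mutant was Gata3flox/flox::DbhCreERT2 and its control was Gata3flox/+::DbhCreERT2. The labels give the strain of both Hand2 groups as B6.129/SVJ with C57BL/6, that of the Gata3 mutant as B6.126/SV129 with C57BL/6 and that of the Gata3 control as B6.129/SV129 with C57BL/6. Each group was 1 pool: the Hand2 mutant, the Hand2 control and the Gata3 control held 16 ganglia from 4 mice each, and the Gata3 mutant held 32 ganglion rudiments from 8 mice. The labels give the cells as neurons, but the RNA came from whole ganglia.

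The table holds a single comparison of a mutant with a control and names neither line. It has 2 columns of values, read as normalised and with no stated unit. The second group mean is called the mutant side here and the column headed control is called the control side. This reading rests on the sheet, which sets a mutant against a control, because the column that carries the mutant heading holds an average of the other columns. No column was assigned to a line. The values summed to 19135221 on the mutant side and 19343986 on the control side. Hand2 itself had a value of 2001 on the mutant side and 4749 on the control side. Genes of noradrenergic neurons marked both sides, with Dbh at 89194 on the mutant side and 102922 on the control side. The sides also differed in sex-linked and skeletal muscle transcripts: Xist had 1595 on the mutant side and 114 on the control side, and the muscle gene Acta1 had 17 on the mutant side and 456 on the control side. With 1 column on each side there is no replicate error, so no test was run. "Higher" and "lower" describe these columns, and the effect of genotype cannot be told apart from sex, dissection or the difference between pools of mice. In whole ganglia, a different number of macrophages and a different RNA content per macrophage cannot be told apart either.

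Macrophages live in peripheral ganglia beside neurons and satellite glia, where they clear debris and survey the tissue. Their survival depends on the CSF1 receptor and their identity on PU.1. They sense targets through Fc receptors, complement receptors and Toll-like receptors, and several of these signal through small adaptors that carry an immunoreceptor tyrosine-based activation motif (ITAM). They also secrete C1q, the recognition molecule of the classical complement pathway, and lysozyme.

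PU.1 binds a purine-rich core, which was searched here only as GAGGAA. Promoters are shown for the genes with the highest values so that this core can be read beside them. The 5 windows are those of Lyz2, Mpeg1, C1qb and Laptm5, which had the highest values among members that were at least 25% higher and had a promoter entry, and of C1qc, the neighbour of C1qb. They run 5′ to 3′ on the gene's strand from 250 bases before to 50 bases after the RefSeq start, in build GRCm38.p6. Capitals mark GAGGAA or its reverse complement TTCCTC, and the rest is in lower case.
Lyz2 (chr10:117282223-117282522, strand -): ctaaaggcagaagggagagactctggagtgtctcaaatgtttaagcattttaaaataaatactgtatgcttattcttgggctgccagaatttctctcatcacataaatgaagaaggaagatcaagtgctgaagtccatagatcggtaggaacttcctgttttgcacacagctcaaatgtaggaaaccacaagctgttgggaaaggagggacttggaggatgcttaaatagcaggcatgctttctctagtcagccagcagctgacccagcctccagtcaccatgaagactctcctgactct
Mpeg1 (chr19:12460520-12460819, strand +): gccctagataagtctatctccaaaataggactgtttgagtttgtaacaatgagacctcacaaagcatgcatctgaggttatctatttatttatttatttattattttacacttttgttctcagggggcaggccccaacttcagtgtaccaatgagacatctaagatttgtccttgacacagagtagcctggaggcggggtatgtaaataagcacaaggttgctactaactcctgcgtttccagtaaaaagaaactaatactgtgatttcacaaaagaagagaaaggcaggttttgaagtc
C1qb (chr4:136886151-136886450, strand -): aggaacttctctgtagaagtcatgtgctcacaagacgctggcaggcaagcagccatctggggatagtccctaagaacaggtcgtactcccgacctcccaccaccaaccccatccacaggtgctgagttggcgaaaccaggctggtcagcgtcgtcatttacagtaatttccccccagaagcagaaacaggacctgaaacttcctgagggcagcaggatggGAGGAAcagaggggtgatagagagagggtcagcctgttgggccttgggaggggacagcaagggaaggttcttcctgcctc
C1qc (chr4:136892865-136893164, strand -): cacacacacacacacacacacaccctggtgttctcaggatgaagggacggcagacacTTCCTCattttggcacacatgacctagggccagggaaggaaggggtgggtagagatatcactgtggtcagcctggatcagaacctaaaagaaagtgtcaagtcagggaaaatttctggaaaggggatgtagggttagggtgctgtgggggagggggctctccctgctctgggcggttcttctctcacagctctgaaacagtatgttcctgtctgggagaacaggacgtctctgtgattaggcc
Laptm5 (chr4:130913066-130913365, strand +): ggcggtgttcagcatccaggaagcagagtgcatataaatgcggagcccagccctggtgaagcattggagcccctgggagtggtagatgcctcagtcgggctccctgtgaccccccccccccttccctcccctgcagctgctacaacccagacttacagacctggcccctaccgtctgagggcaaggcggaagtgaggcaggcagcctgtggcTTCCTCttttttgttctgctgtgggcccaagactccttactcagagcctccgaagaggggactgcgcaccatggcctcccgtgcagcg
The core was present in the windows of C1qb, C1qc and Laptm5, and these letters were not found in the windows of Lyz2 and Mpeg1. In C1qb its first base lay at position -30 from the start and was read on the gene's strand, while in Laptm5 and C1qc it lay at -38 and -193 on the opposite strand. Bases just after the RefSeq start were found in GENCODE transcripts of the gene for the other windows, but not for C1qb. The C1qb position thus rests on the RefSeq start alone. Of the 29 members with a promoter entry, 17 (58.6%) held the core on either strand in at least 1 window, against 31.3% of all 27025 genes with an entry. A match of these letters is a description and not a measured binding site, and other forms of the site were not searched.

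Most macrophage genes had higher values on the mutant side. Of the 37, 31 were higher and 6 lower, where 50% of all 13171 genes that reached the same mean value had a higher one. Scaling each column by its sum made it 32 higher, since Cyba, with nearly equal values, changed side. Their median log2 ratio, computed with a pseudocount of 1, was 0.35, a 1.28-fold difference, and the median of all 13171 genes was 0.00047. On this pseudocount scale, which all counts of this kind use, at least 25% higher were 22 of the 37 members (59.5%), against 5.94% of all genes. At least 1.5-fold higher were 6 members, against 1.41% of all genes, and at least 2-fold higher was 1 member, Ly86, against 0.167% of all genes. No member was 1.5-fold or 2-fold lower, where 2.41% and 0.835% of all genes were. At least 20% lower was 1 member, Pf4, against 7.31% of all genes, and it lay exactly on that limit and was not counted under 4 of the 6 other settings tried. The members' values summed to 7384 on the mutant side and 5653 on the control side, a ratio of 1.31, and made up 0.0386% of the mutant side and 0.0292% of the control side. Leaving out the 7 members with the highest values gave a ratio of sums of 1.23 and a median log2 ratio of 0.33 over the other 30.

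**Figure D1:**
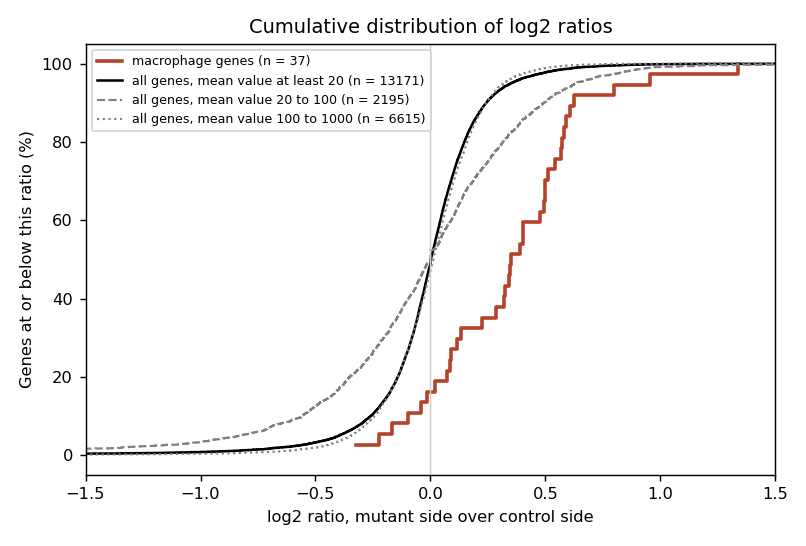
Cumulative share of genes (vertical axis, percent) at or below each log2 ratio of the mutant side over the control side (horizontal axis, pseudocount 1), for the 37 macrophage genes, for all genes that reached a mean value of 20 and for all genes in 2 bands of mean value. The curve of the macrophage genes lies to the right of the others, with a median of 0.35 against 0.00047 for all genes.

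Genes with low values scatter more, so the members were also set beside genes of like value, in bands chosen after the values had been seen. With a mean value from 20 up to 100 there were 19 members, of which 15 were higher, against 47.6% of all 2195 genes in the band, and 11 were at least 25% higher, against 19.6%. With a mean value from 100 up to 1000 there were 18 members, of which 16 were higher, against 52.3% of 6615 genes, and 11 were at least 25% higher, against 4.85%. The median log2 ratio of the members was 0.39 in the lower band and 0.35 in the upper band, where those of all genes were 0 and 0.01. In both bands the members' share was above that of all genes.

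The authors' own test gave little evidence for differences of single members. By the authors' deposited table no member passed an adjusted p of 0.05, where 0.365% of the 16990 genes with a p did, and the lowest adjusted p of a member was 0.502, for Lyz2. The authors' unadjusted p was under 0.05 for 5 members, against 2.05% of all genes. These were Lyz2, Mpeg1, C1qb, Ly86 and C1qa, with unadjusted p of 0.00365, 0.0121, 0.0245, 0.0269 and 0.0382 in the authors' deposited table. All 5 had higher values on the mutant side, where 0.471% of all genes were higher with such a p. The number of libraries behind these p-values is unknown.

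**Figure D2:**
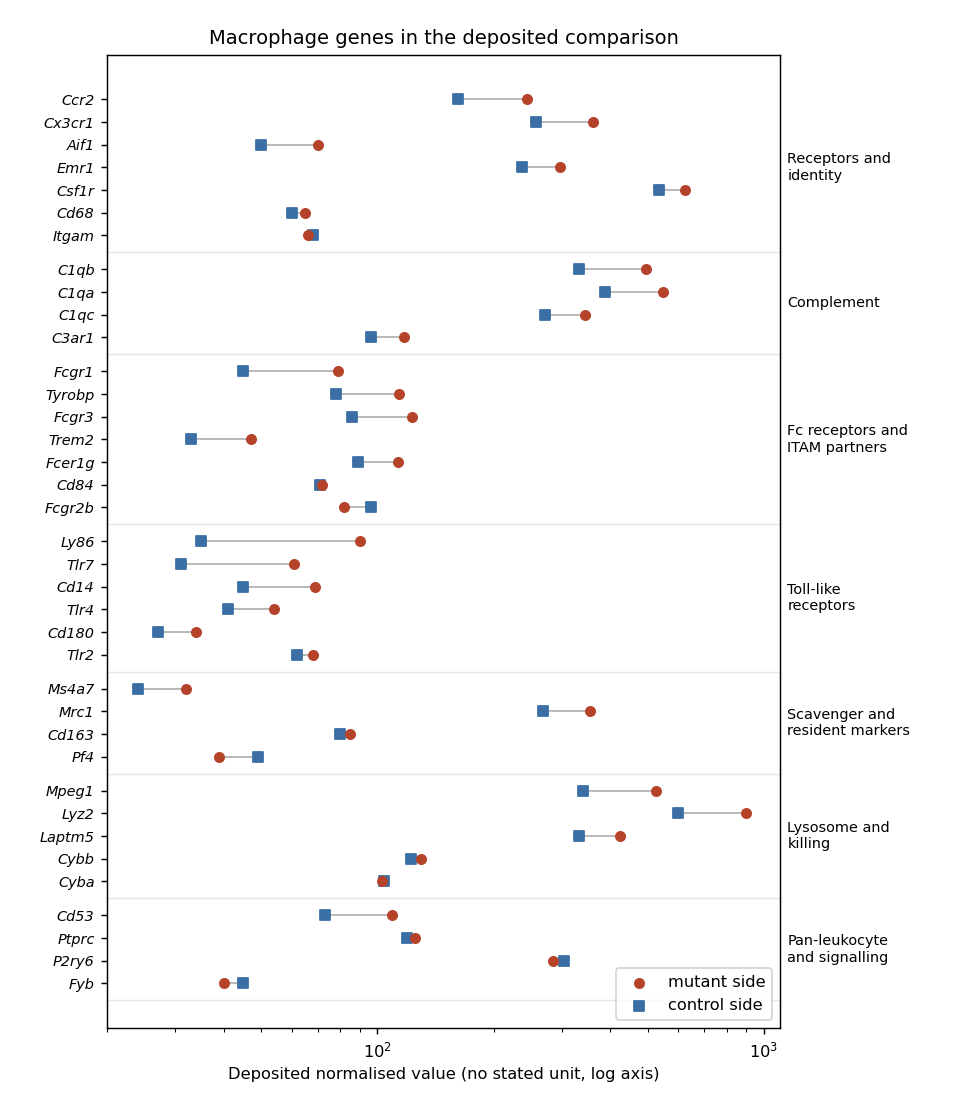
Deposited values, read as normalised (horizontal log axis, no stated unit), of the 37 macrophage genes, grouped by role. The mutant side is drawn as circles and the control side as squares. The circle lies to the right of the square in 31 genes, and in Itgam, Fcgr2b, Pf4, Cyba, P2ry6 and Fyb it lies to the left.

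The receptors that define the lineage were higher by small amounts. Csf1r, the receptor for CSF1 and IL-34, had a value of 623 on the mutant side and 534 on the control side, a ratio of 1.17. Emr1, which encodes the classical mouse macrophage antigen F4/80, had 296 on the mutant side and 237 on the control side, a ratio of 1.249 that lay just under the limit of 25%, while Cd180, described below, lay just on it. Sfpi1 had 43 on the mutant side and 32 on the control side. Csf1r, Emr1 and Sfpi1 thus differed in the same direction. So did Cd68, a lysosomal glycoprotein of phagocytes, at 65 on the mutant side and 60 on the control side. Of the 7 receptors and identity genes among the members, 6 were higher and Itgam, described below, was lower, where 50% of all genes were higher.

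The chemokine receptors had wider gaps. Cx3cr1, the fractalkine receptor of resident macrophages and of a class of monocytes, had 362 on the mutant side and 257 on the control side, a ratio of 1.41. Ccr2, which draws inflammatory monocytes out of the blood, had 243 on the mutant side and 162 on the control side, a plain ratio of 1.5 that fell just short of 1.5-fold on the pseudocount scale. Aif1, which encodes the actin-binding protein IBA1, had 70 on the mutant side and 50 on the control side. The integrin subunit gene Itgam (CD11b), carried by macrophages, monocytes and neutrophils, did not share these gaps, with 66 on the mutant side and 68 on the control side.

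The 3 chains of C1q were among the most abundant members and all were higher. C1qa had 547 on the mutant side and 387 on the control side, a ratio of 1.41. C1qb had 494 on the mutant side and 333 on the control side, a ratio of 1.48. C1qc had 345 on the mutant side and 271 on the control side, a ratio of 1.27. The C1q genes are neighbours on chromosome 4, in the order C1qb, C1qc and C1qa, and their products assemble into 1 molecule. C3ar1, the receptor for the complement fragment C3a, had 117 on the mutant side and 96 on the control side.

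Among the Fc receptors the activating members and the inhibitory member went apart. Fcgr1, the high-affinity receptor for IgG, had 79 on the mutant side and 45 on the control side, a ratio of 1.76. Fcgr3, a low-affinity activating receptor, had 123 on the mutant side and 86 on the control side, a ratio of 1.43. Fcgr2b, the inhibitory receptor, had 82 on the mutant side and 96 on the control side, a ratio of 0.854. Fcgr3 and Fcgr2b are similar in sequence, and how reads shared between them were counted is unknown. Their 2 ratios were not compared by a test.

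The ITAM adaptors were higher together with the activating receptors. Tyrobp (DAP12), the adaptor of TREM2 and other myeloid receptors, had 114 on the mutant side and 78 on the control side, a ratio of 1.46. Fcer1g, the common gamma chain of Fc receptors, had 113 on the mutant side and 89 on the control side, a ratio of 1.27. Trem2, a lipid-sensing receptor of phagocytes, had 47 on the mutant side and 33 on the control side. Cd84, a homophilic receptor of the SLAM family on many leukocytes, was nearly equal at 72 on the mutant side and 71 on the control side.

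All 6 genes of the Toll-like group were higher, and the group held the largest ratios of the 37. Ly86 (MD-1), the secreted partner of CD180, had 90 on the mutant side and 35 on the control side, a ratio of 2.57. Cd180, a Toll-like protein without the usual signalling domain, had 34 on the mutant side and 27 on the control side. Tlr7, the receptor for single-stranded RNA, had 61 on the mutant side and 31 on the control side, a ratio of 1.97. Values of this size scatter widely, since 6.65% of all genes with a mean value from 20 up to 100 were at least 1.5-fold higher. Tlr4, the receptor for lipopolysaccharide, had 54 on the mutant side and 41 on the control side, and its co-receptor gene Cd14 had 69 on the mutant side and 45 on the control side. Tlr2, the receptor for bacterial lipopeptides, had 68 on the mutant side and 62 on the control side.

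Tlr7 and Cybb are on the X chromosome, and Xist and the Y-linked genes differed between the sides. Cybb, the catalytic subunit of the phagocyte NADPH oxidase, had 130 on the mutant side and 122 on the control side. Other X-linked genes of the myeloid lists that reached a mean value of 20 were Gpr34 (59 on the mutant side and 47 on the control side), Tlr13 (48 on the mutant side and 40 on the control side), Cfp (51 on the mutant side and 78 on the control side) and Irak1 (1386 on the mutant side and 1471 on the control side). Of these 6 X-linked genes 4 were higher and 2 lower on the mutant side. Without Tlr7 and Cybb the median log2 ratio of the other 35 members was still 0.35, and 21 of them were at least 25% higher.

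Markers of tissue-resident and scavenging macrophages had both directions. Mrc1 (CD206), the mannose receptor, had 354 on the mutant side and 268 on the control side, a ratio of 1.32. Cd163, the scavenger receptor for haemoglobin bound to haptoglobin, had 85 on the mutant side and 80 on the control side. Ms4a7, a membrane-spanning protein of macrophages, had 32 on the mutant side and 24 on the control side. Pf4, a chemokine gene of platelets and of some resident macrophages, was lower, with 39 on the mutant side and 49 on the control side, a ratio of 0.796.

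Genes of killing and of the lysosome included the most abundant member. Lyz2 (lysozyme M) had 901 on the mutant side and 599 on the control side, a ratio of 1.504. Its near copy Lyz1 had 91 on the mutant side and 72 on the control side, and reads from either may have been placed on the other. Mpeg1, which encodes the pore-forming protein perforin-2, had 524 on the mutant side and 340 on the control side, a ratio of 1.54. Laptm5, a lysosomal membrane protein of leukocytes, had 424 on the mutant side and 332 on the control side, a ratio of 1.28. Cyba, the membrane partner of CYBB that many cell types also make, had 103 on the mutant side and 104 on the control side.

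The mixed group of pan-leukocyte and signalling genes had the smallest median, with 2 genes higher and 2 lower. Ptprc (CD45), the phosphatase of all leukocytes, had 125 on the mutant side and 119 on the control side, a ratio of 1.05. Cd53, a leukocyte tetraspanin, had 109 on the mutant side and 73 on the control side. P2ry6, the receptor for the nucleotide UDP, had 284 on the mutant side and 304 on the control side. Fyb, an adaptor of T cells and myeloid cells, had 40 on the mutant side and 45 on the control side. The median log2 ratio was -0.01 over these 4 genes, 0.50 over the 6 of the Toll-like group, 0.50 over the 7 of the Fc and ITAM group and 0.42 over the 4 complement genes. It was 0.35 over the 5 lysosome and killing genes, 0.32 over the 7 receptors and identity genes and 0.24 over the 4 scavenger and resident markers. These groups of 4 to 7 genes were not compared by a test.

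**Figure D3:**
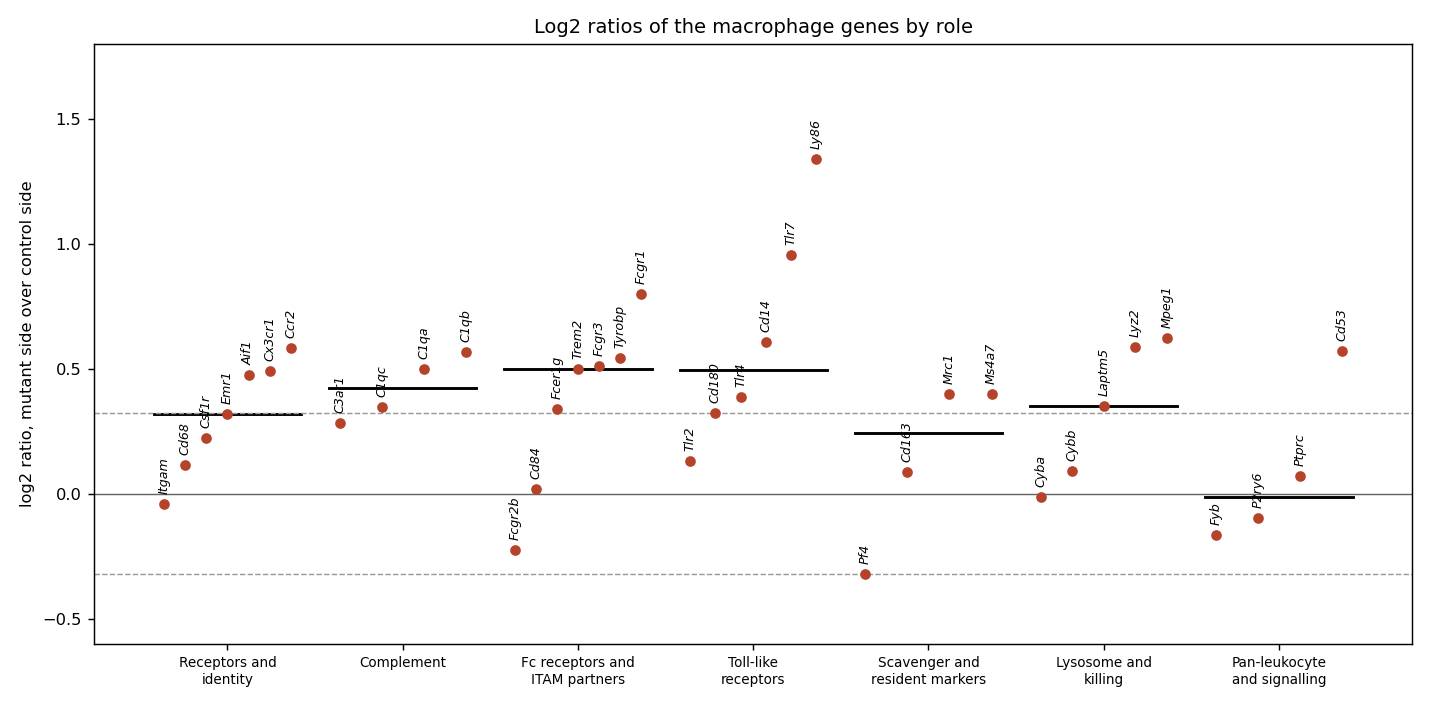
Log2 ratios of the mutant side over the control side (vertical axis, pseudocount 1) of the 37 macrophage genes by role, with the median of each role as a bar and the limits of 25% higher and 20% lower as dashed lines. Ly86 is the highest at 1.34 and Pf4 the lowest at -0.32.

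Per kilobase of exon, which allows levels of different genes to be compared, a few short secreted and adaptor genes led. Lyz2 stood first with 685 per kilobase on the mutant side and 455 on the control side. C1qa, C1qb, C1qc and Tyrobp followed, with 526, 454, 179 and 171 per kilobase on the mutant side and 372, 306, 140 and 117 per kilobase on the control side. Csf1r had 108 per kilobase on the mutant side and 92.5 on the control side, and Emr1 had 91.4 on the mutant side and 73.2 on the control side. At the low end Ms4a7 had 7.19 on the mutant side and 5.39 on the control side, and Ptprc had 6.83 on the mutant side and 6.50 on the control side. The lengths are all exons of a gene merged, so long rare isoforms lower the level of genes such as Ptprc and Trem2.

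Further macrophage genes and the pathways around the members were read from lists. Of all 13171 genes that reached a mean value of 20, 50% were higher and 5.94% at least 25% higher, shares that apply beside each list below. With a mean value from 20 up to 100, 19.6% of all genes were at least 25% higher. Of 33 other macrophage genes that reached a mean value of 20, 26 were higher and 7 lower. At least 25% higher were 13 of the 33 (39.4%), and their median log2 ratio as a list was 0.19. The 4 with the highest values were Apoe (40681 on the mutant side and 31910 on the control side), Ctsb (28161 on the mutant side and 24247 on the control side), Lgmn (5647 on the mutant side and 5313 on the control side) and Grn (3024 on the mutant side and 3029 on the control side). These encode apolipoprotein E, 2 lysosomal proteases and progranulin, and glia or neurons also express them. Ctss, the cathepsin of antigen-presenting cells, had 665 on the mutant side and 392 on the control side. Its adjusted p was 0.182 by the authors' deposited table. Ctss was named after its values were seen.

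Signalling and cytoskeletal genes that act with the ITAM adaptors in leukocytes were closer to equal. Of 14 such genes 11 were higher and 3 lower, with a median log2 ratio of 0.14. At least 25% higher were 4 (28.6%), against 5.94% of all genes and 19.6% of genes with a mean value from 20 up to 100. Coro1a, a leukocyte actin regulator that neurons also express, had 1507 on the mutant side and 1489 on the control side. Lcp1 (L-plastin) had 455 on the mutant side and 438 on the control side, and Plek (pleckstrin) had 253 on the mutant side and 214 on the control side. Arhgdib, a gene of blood cells, had a wider gap, with 142 on the mutant side and 84 on the control side.

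The NADPH oxidase list had 4 higher and 1 lower of 5 genes and a median log2 ratio of 0.20. Its highest was the widely expressed Rac1, at 6975 on the mutant side and 6828 on the control side. The cytosolic subunit gene Ncf1 had 97 on the mutant side and 50 on the control side, and Rac2, the Rac of blood cells, had 75 on the mutant side and 57 on the control side. Ncf1 thus had a ratio of 1.94, where the membrane subunits Cybb and Cyba had 1.07 and 0.990.

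Myeloid transcription factors had 9 higher and 2 lower of 11 genes and a median of 0.18. Bach1, Mitf, Irf5 and Cebpa had 778, 167, 158 and 136 on the mutant side and 755, 164, 157 and 158 on the control side, and other cell types express several of them. Irf8, a factor of the monocyte lineage named after its values were seen, had 104 on the mutant side and 82 on the control side.

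In the wider complement list 13 of 16 genes were higher and the median was 0.17. Serping1, the C1 inhibitor gene, had 1908 on the mutant side and 1670 on the control side, and C4b had 1428 on the mutant side and 1327 on the control side. C1qbp, a mostly mitochondrial protein, had 1357 on the mutant side and 1235 on the control side, and Cd59a, an inhibitor of the membrane attack complex, had 1152 on the mutant side and 1341 on the control side. Cfd (adipsin), a complement protease gene made largely by fat cells, had the widest gap of the list, with 903 on the mutant side and 457 on the control side, a ratio of 1.98. By the authors' deposited table its adjusted p was 0.00154, the only one in the list under 0.05, and it was named after its values were seen. The other genes of the Toll-like pathway were split, 8 higher and 7 lower of 15, with a median of 0.05. The signalling genes Irak1, Rela, Nfkb1 and Traf6, which most cells express, had 1386, 868, 761 and 488 on the mutant side and 1471, 875, 733 and 527 on the control side.

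The ligands that maintain or attract macrophages had 8 higher and 4 lower of 12 genes and a median of 0.19. Csf1 and Il34, the ligands of the CSF1 receptor, had 721 and 411 on the mutant side and 745 and 381 on the control side. Mif had 1012 on the mutant side and 957 on the control side, and the chemokine gene Cxcl12 had 428 on the mutant side and 456 on the control side. Cx3cl1, the ligand of CX3CR1, had 46 on the mutant side and 75 on the control side, and Ccl2 and Ccl7, ligands of CCR2, had 27 and 41 on the mutant side and 21 each on the control side. The last 3 were named after their values were seen, as partners of the receptors described above.

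Markers of other leukocytes were near the floor of the table on both sides. Of 15 T and NK cell genes, 1 had a mean value of at least 20, Cd247, at 120 on the mutant side and 108 on the control side. The T cell receptor component Cd3e had 3 on each side, and the 15 genes summed to 182 on the mutant side and 158 on the control side. None of 9 B cell genes reached a mean value of 20, Pax5 was listed at 0 on both sides, and the list summed to 39 on the mutant side and 26 on the control side. Of 11 neutrophil genes, 1 reached it, Cxcr2, at 32 on the mutant side and 48 on the control side, while S100a8 had 2 on each side and Camp was listed at 0 on both. The neutrophil list summed to 49 on the mutant side and 57 on the control side.

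Of 10 mast cell genes, 1 reached a mean value of 20, Kit, which other cells also express, at 527 on the mutant side and 443 on the control side. Fcer1a was listed at 0 on both sides, and the list summed to 563 on the mutant side and 470 on the control side. The dendritic cell list had 3 higher and 3 lower of 6 genes, with Cd24a, which neurons also express, at 12878 on the mutant side and 13337 on the control side. Zbtb46 had 215 on the mutant side and 175 on the control side, Flt3 had 60 on the mutant side and 64 on the control side, and Siglech had 43 on the mutant side and 31 on the control side. The summed levels of these lists were small beside the 7384 and 5653 of the macrophage genes, except where a gene that other cells also express carried them.

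Other cell types of the ganglion had smaller medians, and the skeletal muscle list differed most. Of 10 noradrenergic neuron genes 2 were higher and 8 lower, with a median log2 ratio of -0.12 and sums of 325440 on the mutant side and 384111 on the control side. Of 8 satellite glia genes 6 were higher, with a median of 0.03 and sums of 33064 on the mutant side and 29709 on the control side. Of 8 endothelial genes 6 were higher, with a median of 0.17 and sums of 1705 on the mutant side and 1551 on the control side. Of 8 fibroblast genes 1 was higher, with a median of -0.14 and sums of 23321 on the mutant side and 25054 on the control side. The 9 skeletal muscle genes were all lower, with sums of 61 on the mutant side and 1753 on the control side. The red blood cell genes Bpgm and Alas2 had 678 and 144 on the mutant side and 573 and 109 on the control side. Their median log2 ratio was 0.32, near the 0.35 of the macrophage genes. In the same list Slc4a1 had 10 on the mutant side and 4 on the control side. The globin genes Hbb-b1, Hba-a1 and Hba-a2 were listed at 0 on both sides, and whether their reads were counted is unknown. With no minimum mean value the median of the red blood cell list was 0.40, taken over Bpgm, Alas2 and Slc4a1 alone. The part of muscle carry-over, blood content or the sex of the mice in the values of the macrophage genes was not tested.

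**Figure D4:**
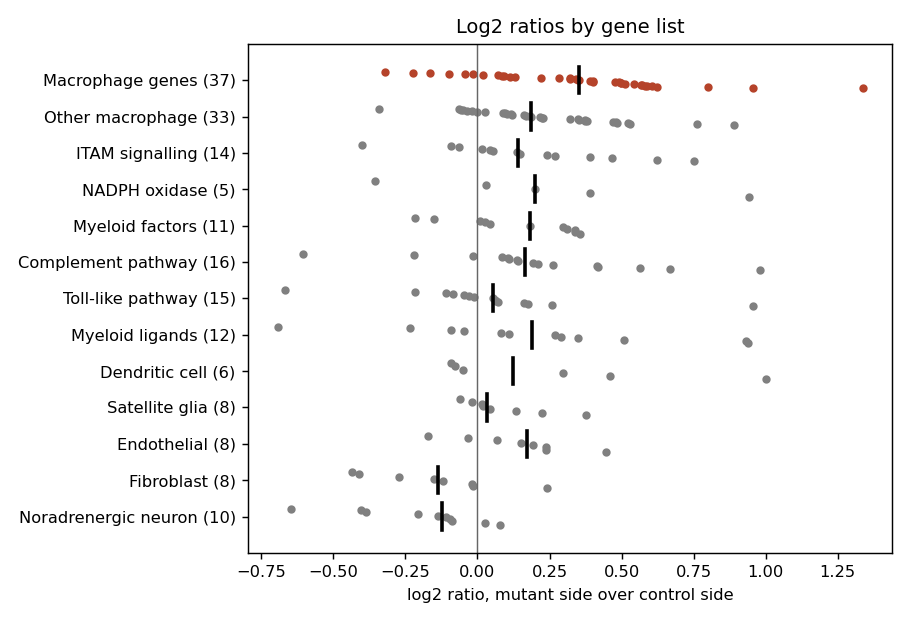
Log2 ratios of the mutant side over the control side (horizontal axis, pseudocount 1) of the macrophage genes and of 12 lists, for genes that reached a mean value of 20, with the number of genes in brackets and the median as a bar. The macrophage genes have the highest median of the lists drawn, 0.35, and the fibroblast and noradrenergic neuron lists lie at -0.14 and -0.12. The red blood cell list, with a median of 0.32 over 2 genes, is not drawn.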

How the data were processed

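Superior cervical and stellate ganglia of 4 mouse groups were sequenced, 1 pool each. Per the submitters' processing notes, build mm9, DESeq, HTSeq 0.5.4p1, TopHat2 2.0.8 and SAMtools 0.1.19 were used, in roles not stated. The annotation, the strand setting and the handling of shared reads were not given in the sources used here. Per the file headers, the deposited control column and second group mean are means normalised by DESeq, used as a score with no stated unit, so their depth in reads is unknown. A further deposited column, with a mutant heading, holds the mean of both in all 21937 genes and was left aside. The deposited fold change equals their ratio in all 16501 genes with a control value above 0. The deposited p-value and adjusted p-value were copied.

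Log2 ratios used a pseudocount of 1, which understates ratios of low genes. Genes needed a mean value of 20. Printed ratios of single genes are plain. Other settings tried were pseudocounts of 0.5 and 5, other minimums and scaling by column sums. The 1.5-fold call was tried on simulated data in which some genes changed 2-fold, with counting noise alone. Other limits and differences between pools were not simulated. All members were named, and in each list the 4 genes with the highest values. Of 252 list entries 245 were found. Members, lists and limits were chosen with earlier results of these data known. Exon lengths came from GENCODE M21, and names, chromosomes and promoters from RefSeq (GRCm38.p6). Python 3.11.15, pandas 2.3.3, NumPy 2.4.6 and matplotlib 3.10.9 were used. A gene that the naming rule covers is not reported here.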

Additional observations from a re-analysis of the deposited data

How the results depend on the processing

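The members' median log2 ratio stayed between 0.35 and 0.37 under pseudocounts of 0.5 and 5, no minimum, a minimum of 50 and both scalings by column sums. The count at least 25% higher ran from 17 (of 30 members, minimum of 50) to 23. Of single members' ratios, none changed by more than 0.1. The count at least 20% lower was 0 with a pseudocount of 5 and either scaling, since Pf4 lay on the limit, and with a minimum of 50, which Pf4 did not reach. The authors' unadjusted p in place of the adjusted p gave 5 members, and each band of mean value held 11. Among lists, a pseudocount of 0.5 moved the median of the sex-linked list to -9.92, and a pseudocount of 5 moved it to -6.61 and that of skeletal muscle to -4.13. With no minimum the medians were 0.29 (myeloid ligands), 0.031 (NADPH oxidase), 0.49 (mast cell) and 0.38 (dendritic cell), and the neutrophil median, of 1 gene before, turned to 0.29. With a minimum of 50 they were 0.081 (myeloid ligands), 0.39 (NADPH oxidase), 0.043 (myeloid factors), -0.051 (dendritic cell) and -4.79 (skeletal muscle). More or fewer genes entered these medians, and no median over a handful of genes is firm. No paired analysis was possible because each group is 1 pool and the columns carry no replicate number.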
